A study of Mus musculus with 9 samples.

Results

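The Toll-like receptor genes Tlr1, Tlr2, Tlr4, Tlr6, Tlr7, Tlr8, Tlr9 and Tlr13 were followed together with Myd88, the adaptor that these receptors signal through, and Cd14, the coreceptor that hands lipopolysaccharide to TLR4. They were chosen by name, as 10 of the 23337 genes counted in every library, and all 10 were among the 12553 genes that passed the filter on low counts. RNA came from CD11b+ bone marrow cells of 9 male C57BL/6 mice, with 1 library per mouse and 3 mice per group. PBS mice received 100 µl of the vehicle by tail vein on Days 1, 3 and 5. EnzR EV mice received 10 µg of extracellular vesicle protein in the same volume on the same days, and these vesicles came from CWR-R1 prostate cancer cells that resist enzalutamide, an androgen receptor blocker. Mice of the group EnzR EVs + HDL NPs received the same EVs and, on Days 0, 2 and 4, HDL NPs (1 µM and 100 µl per the labels), which are synthetic particles that mimic high-density lipoprotein. The samples hold no group given HDL NPs alone and none given EVs of a non-cancer cell, the vesicles came from human cells of a single line, and the cells were enriched with a kit on CD11b, so that the RNA of a library is a mixture of myeloid cells.

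Toll-like receptors recognise molecules of microbes and of damaged cells. TLR1, TLR2, TLR4 and TLR6 sit at the cell surface, where TLR2 pairs with TLR1 or TLR6 to bind lipopeptides and TLR4 binds lipopolysaccharide with the help of CD14 and MD-2. TLR7, TLR8, TLR9 and TLR13 sit in endosomes and bind nucleic acids: single-stranded RNA for TLR7 and TLR8, unmethylated CpG DNA for TLR9 and bacterial ribosomal RNA for TLR13. All of them recruit MyD88, which assembles IRAK kinases and TRAF6 and leads to NF-kB and interferon regulatory factors. In marrow, neutrophils and monocytes carry most of these receptors.

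Total counts ranged from 2575776 to 18110561 per library, so that 3 counts, taken here as the floor of detection, stood for 0.16 to 1.65 CPM (counts scaled to the library total and corrected by the TMM factors). A set of 3 libraries stood apart in ribosomal RNA. Rn45s, the 45S precursor of ribosomal RNA, took 42.7% of the counts in EnzR EVs replicate 1, 20.3% in PBS replicate 1 and 14.2% in EnzR EVs replicate 3, against 0.657 to 2.87% in the other 6 libraries, although the kit depleted ribosomal RNA and the study filtered reads that align to it. None of the 3 was from the EnzR EVs + HDL NPs group, and the differences of the 10 genes, and of the pathway genes singled out, are therefore also given without them. The markers of the sorted cells were present in all libraries, with Itgam, which encodes CD11b, at 1389 to 2006 CPM. The summed CPM of 8 neutrophil and granulocyte markers was 19830 to 47350 in the 3 libraries rich in Rn45s and 61060 to 122400 in the other 6. S100a8 (1746 to 7806 against 12500 to 38310 CPM) and S100a9 (2230 to 12420 against 22840 to 51360) carried this gap, while Cxcr2, Camp, Ltf, Elane and Itgam overlapped and Mpo, a gene of early granulocytes, was higher in the 3 (1190 to 1673) than in the 6 (438.8 to 1065). The 6 monocyte markers summed to 1225 to 2133 CPM in the 3 and 1639 to 2363 in the 6, which overlapped, while among them Ly6c2 (101 to 246 against 296 to 596) and Fcgr1 (6.04 to 15.1 against 15.9 to 35.9) were lower in all 3. The 7 marrow macrophage markers summed to 488 to 626 CPM in the 3 and 560 to 1085 in the 6, which overlapped too. Among them Emr1 (68.6 to 95.9 against 123 to 178) and Mrc1 (48.8 to 86.2 against 87.8 to 203) were lower in all 3, while the others overlapped. The summed NK and T markers were also higher in the 3, at 46.9 to 76.8 CPM against 20.6 to 42.1, most of it from Nkg7 (42.6 to 66.9 against 16.4 to 35.7), with the T cell marker Cd3e at 0 to 1.65 CPM over the 9. The 6 B lineage markers summed to 7.54 to 22.1 CPM over the 9 libraries. The 5 plasmacytoid dendritic cell markers summed to 95.5 to 178 CPM in the 3 and 76.2 to 112 in the 6, which overlapped. Most of this came from Irf8 (55.0 to 140 CPM over the 9) and Tcf4 (17.5 to 49.9), while Siglech stood at 0.21 to 2.82 CPM. The 6 erythroid markers summed to 9.63 to 35.8 CPM over the 9, with the hemoglobin genes Hba-a1 and Hbb-b1 at 0 in all 9. In such bulk RNA, fewer cells of a type and less RNA per cell cannot be told apart.

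The promoter table of RefSeq (assembly GRCm38.p6, 250 bases before to 50 after each start) held 9 promoters for 7 of the 10 genes. Those of Myd88, Tlr8, Tlr13 and Tlr2 are shown, because Myd88, Tlr8 and Tlr2 have the differences described below and Tlr13 had the highest level. Only the 250 bases before the start are printed, from 5′ to 3′ on the strand of the gene. Capitals mark a match, on either strand, to the core of the interferon response element (GAAANNGAA) in Myd88 and Tlr8 and to that of the NF-kB site (GGGANNTTC) in Tlr2. Tlr13 held no match to either, nor to the core of the PU.1 site (GAGGAAGT).
Myd88, chr9:119340019-119340268, minus strand: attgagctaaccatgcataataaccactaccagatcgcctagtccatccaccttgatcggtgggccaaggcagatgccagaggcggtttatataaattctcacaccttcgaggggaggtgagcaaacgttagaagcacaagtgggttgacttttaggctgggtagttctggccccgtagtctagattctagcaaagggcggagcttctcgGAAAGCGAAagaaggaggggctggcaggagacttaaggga
Tlr8, chrX:167264330-167264579, minus strand: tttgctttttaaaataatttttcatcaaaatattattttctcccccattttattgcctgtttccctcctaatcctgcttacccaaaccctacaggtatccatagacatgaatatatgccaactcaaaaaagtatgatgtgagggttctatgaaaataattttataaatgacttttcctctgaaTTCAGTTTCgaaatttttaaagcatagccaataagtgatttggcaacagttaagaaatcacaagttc
Tlr13, chrX:106143025-106143274, plus strand: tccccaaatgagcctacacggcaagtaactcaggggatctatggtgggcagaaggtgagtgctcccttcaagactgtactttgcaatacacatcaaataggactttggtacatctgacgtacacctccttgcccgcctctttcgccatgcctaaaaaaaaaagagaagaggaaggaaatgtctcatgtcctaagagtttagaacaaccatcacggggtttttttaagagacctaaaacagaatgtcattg
Tlr2, chr3:83841609-83841858, minus strand: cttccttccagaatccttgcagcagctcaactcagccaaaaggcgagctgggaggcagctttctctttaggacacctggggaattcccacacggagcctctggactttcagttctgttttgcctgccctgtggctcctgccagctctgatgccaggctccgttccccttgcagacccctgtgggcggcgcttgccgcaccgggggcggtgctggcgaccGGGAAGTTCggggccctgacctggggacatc

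The Myd88 match runs from base -40 to -32 relative to the start and that of Tlr8 from -67 to -59. The starts are those of RefSeq and differ from the gene spans of GENCODE M21 given below. The Myd88 bases shown lie inside its GENCODE span, 119335934 to 119341411, and those of Tlr2 and Tlr13 lie partly inside theirs. A listed promoter of Tlr6 held 2 overlapping matches to the interferon response element core, from -115 to -107 and from -109 to -101, a start of Tlr1 held the PU.1 core from -23 to -16, and Tlr9 held it from 11 to 18 after the start. Of all 32851 promoters of the same 300 bases, 8.56% held the interferon response element core, 3.94% the NF-kB core and 3.2% the PU.1 core. These matches describe letters only, and binding was not measured.

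Levels were compared between genes per kb of exon, with exon lengths from GENCODE M21 on GRCm38. In PBS mice Tlr13 had the highest mean, 63.7 ± 11.6 CPM per kb (SD, n = 3), followed by Tlr2 at 53.0 ± 10.7 and Myd88 at 50.1 ± 11.5. Cd14 followed with 34.1 ± 17.1, Tlr8 with 22.3 ± 10.4, Tlr4 with 16.9 ± 4.22 and Tlr7 with 15.4 ± 4.70. The lowest were Tlr6 at 5.43 ± 1.65, Tlr9 at 4.99 ± 2.34 and Tlr1 at 1.79 ± 0.19 CPM per kb. Among neighbours in this order the ranges of the PBS mice were apart between Tlr7 and Tlr6 and between Tlr9 and Tlr1, and overlapped for all other neighbours. In the EnzR EV mice Myd88 led with 80.8 ± 34.1 CPM per kb, ahead of Tlr13 at 57.3 ± 22.9, with overlapping ranges. With HDL NPs, Tlr13 at 78.3 ± 7.98 stood apart from Myd88 at 44.1 ± 4.55. Tlr1 was last in all 3 groups.

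**Figure D1:**
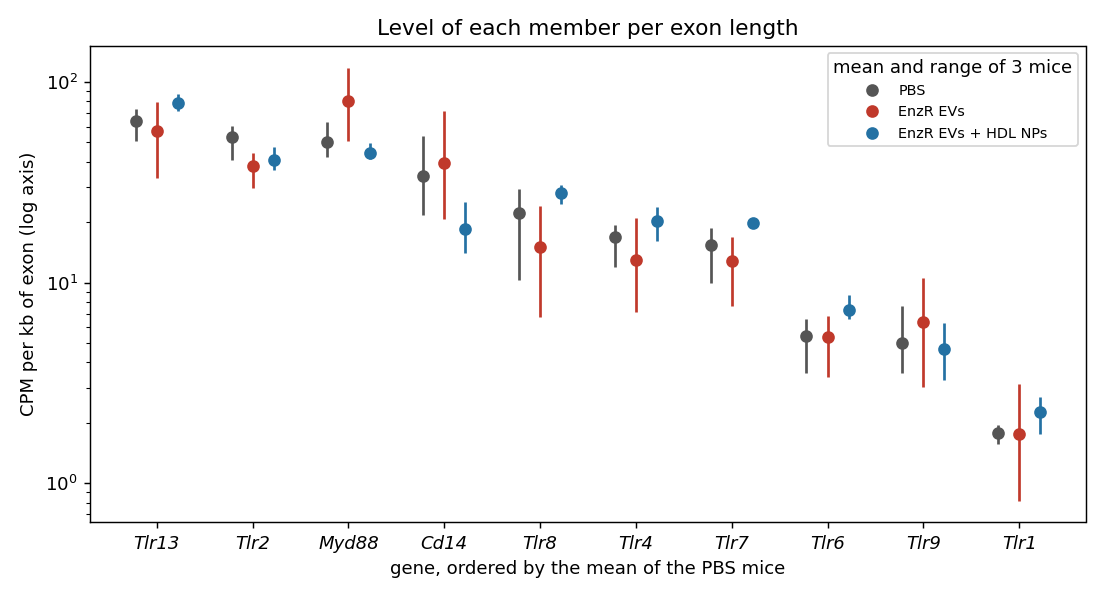
Mean (point) and range (line) of 3 mice for each gene in CPM per kb of exon on a log axis, in PBS, EnzR EV and EnzR EVs + HDL NPs mice, ordered by the mean of the PBS mice. Tlr13 lies highest and Tlr1 lowest in PBS mice, at 63.7 and 1.79 CPM per kb, and the EnzR EV ranges are wide.

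Of the surface receptors, Tlr2 (chromosome 3, 83836272 to 83841767, minus strand) is the shared partner for lipopeptides. Its CPM was 123, 173 and 183 in the PBS mice, 89.4, 133 and 122 in the EnzR EV mice and 117, 143 and 109.4 in the EnzR EVs + HDL NPs mice. The 2 highest values were thus from PBS mice, and PBS replicate 1 fell among the values of the treated mice. Tlr4 (chromosome 4, 66827584 to 66930284, plus strand), the lipopolysaccharide receptor, stood at 66.7, 106 and 108 CPM in PBS mice, 39.5, 117 and 60.5 in EnzR EV mice and 116, 132 and 90.1 in EnzR EVs + HDL NPs mice. Its 3 lowest values were those of the libraries rich in Rn45s. The partners of TLR2 are neighbours on chromosome 5, both on the minus strand, with Tlr1 at 64924679 to 64933563 and Tlr6 at 64952031 to 64960097. Tlr6 was at 13.2, 24.6 and 22.9 CPM with PBS, 12.6, 25.5 and 21.8 with EnzR EVs and 24.5, 32.4 and 24.4 with EnzR EVs + HDL NPs. Tlr1 was at 5.28, 6.56 and 6.12 CPM with PBS, 2.74, 10.5 and 4.49 with EnzR EVs and 9.01, 7.75 and 5.87 with EnzR EVs + HDL NPs. Both genes overlapped between all groups, and the lowest Tlr1 value rests on 5 counts.

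Of the endosomal receptors, Tlr7 and Tlr8, for single-stranded RNA, are neighbours on chromosome X, at 167304929 to 167330558 and 167242696 to 167264329, both on the minus strand. Tlr7 was at 40.8, 76.4 and 71.2 CPM in PBS mice, 31.3, 68.8 and 56.7 in EnzR EV mice and 85.8, 80.6 and 76.6 in EnzR EVs + HDL NPs mice. The 3 mice with HDL NPs lay above all others, by a small margin over PBS replicate 2. Tlr8 stood at 37.1, 96.9 and 105 CPM with PBS, 24.1, 86.6 and 51.0 with EnzR EVs and 102, 110.4 and 88.0 with EnzR EVs + HDL NPs. The mice with HDL NPs lay above the EnzR EV mice, the nearest pair being 88.0 and 86.6, and overlapped with PBS mice. Tlr13 (chromosome X, 106143204 to 106160493, plus strand), for bacterial ribosomal RNA, was at 218, 314 and 290.4 CPM with PBS, 144, 341 and 255 with EnzR EVs and 329, 375 and 307 with EnzR EVs + HDL NPs. All groups overlapped for it. Tlr9 (chromosome 9, 106222598 to 106226883, plus strand), for CpG DNA, went the other way across libraries, with 26.8, 13 and 12.4 CPM in PBS mice, 36.8, 10.5 and 18.9 in EnzR EV mice and 15.4, 11.4 and 21.9 in EnzR EVs + HDL NPs mice. Its highest values were those of EnzR EVs replicate 1 and PBS replicate 1.

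The adaptor Myd88 (chromosome 9, 119335934 to 119341411, minus strand) was at 163, 114 and 109.5 CPM in PBS mice, 304, 132 and 189 in EnzR EV mice and 107, 127 and 107 in EnzR EVs + HDL NPs mice. The 3 highest values were those of the libraries rich in Rn45s, and the highest mouse with HDL NPs, at 127 CPM, was close to the lowest EnzR EV mouse, at 132. In GENCODE M21 Myd88 overlaps Acaa1a on the opposite strand and Slc22a14 on the same strand, and as the strand setting of the counting is not given in the sources used here, the overlapping genes may share its reads. Cd14 (chromosome 18, 36725067 to 36726798, minus strand) stood at 92.8, 46.7 and 37.6 CPM in PBS mice, 125, 45.4 and 36.1 in EnzR EV mice and 24.2, 43.9 and 28.0 in EnzR EVs + HDL NPs mice. PBS replicate 1 and EnzR EVs replicate 1 held the high values, and the other 7 lay between 24.2 and 46.7.

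**Figure D2:**
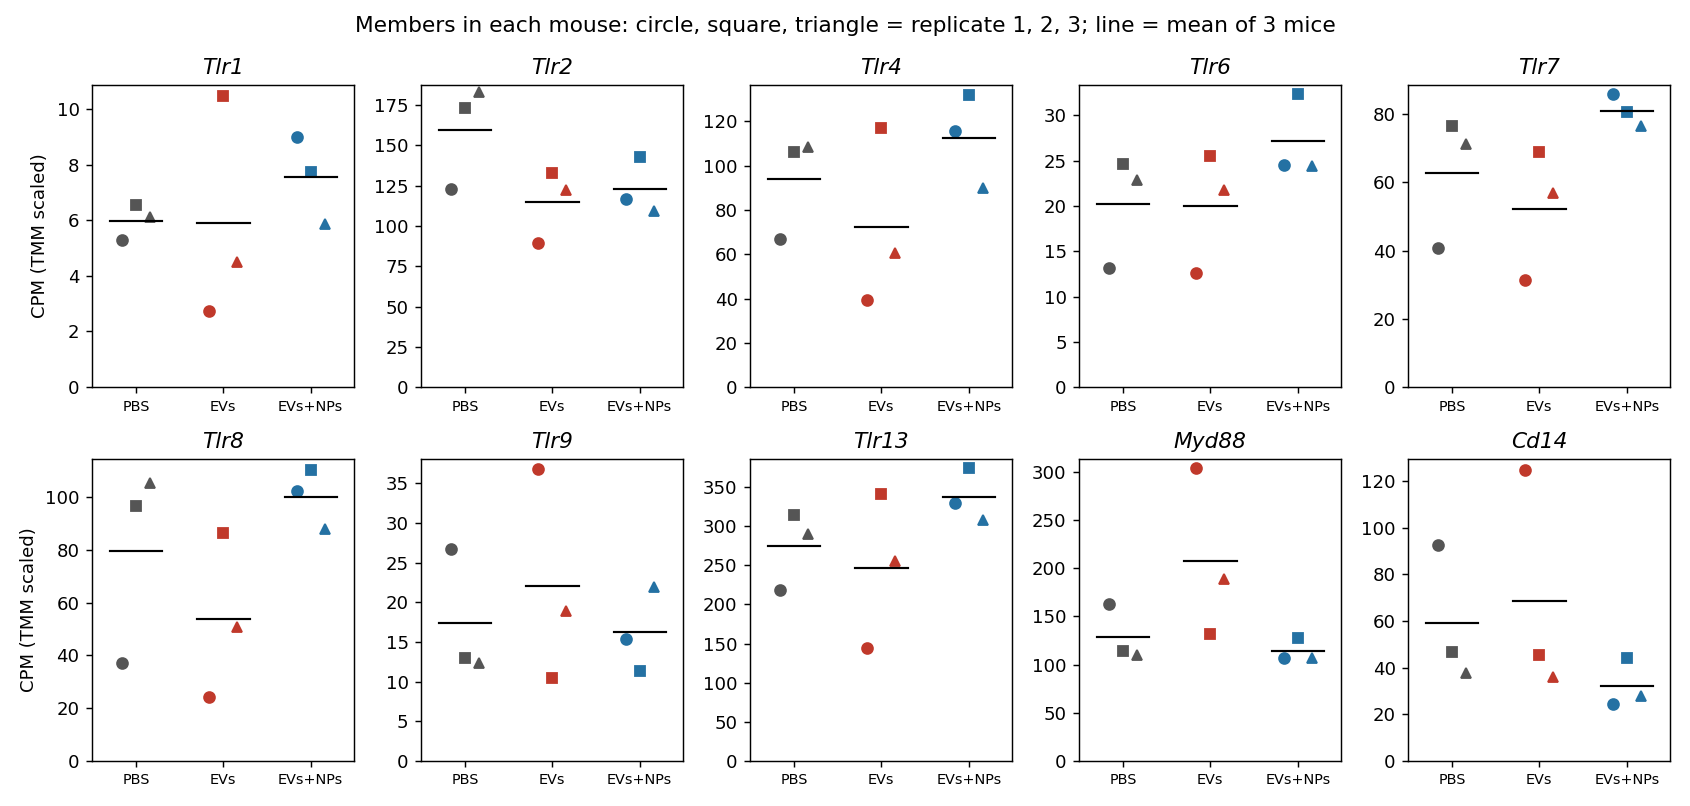
TMM-scaled CPM of each gene (vertical axes, from 0) in each of the 9 mice, by group, where EVs stands for EnzR EVs and EVs+NPs for EnzR EVs + HDL NPs; the black line is the mean of 3 mice. The circles of PBS and EnzR EVs, replicate 1 of each, lie low for Tlr4, Tlr6, Tlr7, Tlr8 and Tlr13 and high for Tlr9, Myd88 and Cd14.

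EnzR EVs were compared with PBS to ask whether the cancer vesicles alter the myeloid cells of the marrow. Myd88 was 1.61-fold the PBS level and Tlr2 0.723-fold, and neither passed the test. In edgeR's quasi-likelihood test with Benjamini-Hochberg adjustment over 12553 genes, 0 of the 10 genes and 0% of all genes passed an adjusted p of 0.05, and with DESeq2 0 of the 10 and 8 of all genes, or 0.0637%, did. Unadjusted p was under 0.05 for 2 of the 10, against 436 or 3.47% of all genes. Myd88 had a log2 fold change of 0.68 ± 0.28 (SE, 95% interval 0.06 to 1.31; adjusted p = 0.928 by edgeR), and Tlr2 one of -0.47 ± 0.21 (-0.93 to -0.004; adjusted p = 0.928 by edgeR). In 0 of the 10 genes were the 3 EnzR EV mice apart from the 3 PBS mice, against 999 or 7.96% of all genes. Tlr8 (-0.53 ± 0.44), Tlr4 (-0.35 ± 0.35), Tlr7 (-0.24 ± 0.29) and Tlr13 (-0.15 ± 0.28) had negative log2 fold changes, and Tlr9 (0.27 ± 0.46), Cd14 (0.18 ± 0.48), Tlr1 (0.13 ± 0.39) and Tlr6 (0.02 ± 0.29) positive ones, each with an interval across 0. The median of the 10 was -0.06, beside -0.03 over all genes tested. With single mice left out, this median ran from -0.44 (without EnzR EVs replicate 2) to 0.02 (without PBS replicate 2). It was 0.11 without the 3 libraries rich in Rn45s. Without the 3 libraries rich in Rn45s, which leaves 1 EnzR EV mouse assumed to vary like the other groups, the log2 fold change was 0.24 for Myd88 and -0.42 for Tlr2. In this setting Tlr1 had the largest of the 10, 0.73 ± 0.28 (adjusted p = 0.76 by edgeR), and was the only gene of the 10 with an unadjusted p under 0.05, against 5.59% of all genes. The others were Tlr9 at -0.27, Tlr8 at -0.22, Tlr13 at 0.18, Tlr4 at 0.13, Tlr6 and Cd14 both at 0.11 and Tlr7 at -0.096. Leaving out a single mouse took Myd88 to 0.32 without EnzR EVs replicate 1 and to 0.96 without EnzR EVs replicate 2. An alternative picked once the data had been seen, limma voom that weights each library by its quality, called 4 of the 10, Myd88, Tlr2, Tlr4 and Tlr8, and 1972 or 15.7% of all genes. For Myd88 its adjusted p was 0.0151, while over all settings tried the adjusted p ran from 0.0151 to 1.0.

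EnzR EVs + HDL NPs were compared with PBS to ask whether mice given both differ from mice given neither. Tlr7 was 1.29-fold the PBS level, with mice that did not overlap, and Cd14 was 0.547-fold and Tlr2 0.770-fold, with mice that did. By edgeR 0 of the 10 and 0% of all genes passed the adjusted threshold, and by DESeq2 0 of the 10 and 7 genes, or 0.0558%. Unadjusted p was under 0.05 for 0 of the 10, against 268 or 2.13% of all genes. The log2 fold change was 0.36 ± 0.29 for Tlr7 (SE, 95% interval -0.28 to 1.00; adjusted p = 1.0 by edgeR), -0.87 ± 0.48 for Cd14 (-1.92 to 0.18; adjusted p = 1.0) and -0.38 ± 0.21 for Tlr2 (-0.84 to 0.08; adjusted p = 1.0). Mice of the groups did not overlap for 1 of the 10, against 1653 or 13.2% of all genes. A two-sided exact permutation test gave p = 0.1 for Tlr7, the smallest that 3 mice against 3 allow. For the other 7 genes the log2 fold change lay between -0.18 for Myd88 and 0.41 for Tlr6. The median of the 10 was 0.28, beside -0.01 over all genes tested. This median was 0.10 without PBS replicate 1, and likewise 0.10 without the 3 libraries rich in Rn45s. Without the 3 libraries rich in Rn45s, of which 1 is a PBS mouse, Tlr7 was at 0.14, Cd14 at -0.39 and Tlr2 at -0.53, and the other 7 lay between -0.012 for Tlr8 and 0.35 for Tlr9. Without PBS replicate 1 alone, Tlr7 was at 0.13, Cd14 at -0.40, Tlr6 at 0.19 and Tlr4 at 0.067. Tlr2, at -0.53, was then the 1 gene of the 10 with an unadjusted p under 0.05 by edgeR, against 1.37% of all genes, with 0 genes called. Limma voom with library weights called 0 of the 10 and 0.0637% of all genes.

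EnzR EVs + HDL NPs were compared with EnzR EVs to ask whether the HDL NPs alter the response to the vesicles, and as all 3 comparisons share groups, none is independent of the others. Myd88 was 0.550-fold the EnzR EV level and Cd14 0.482-fold, while Tlr8 was 1.81-fold, Tlr4 1.53-fold, Tlr7 1.52-fold and Tlr13 1.36-fold. None passed the test. By edgeR 0 of the 10 and 0% of all genes passed the adjusted threshold, and by DESeq2 0 of the 10 and 1 gene, or 0.00797%. Unadjusted p was under 0.05 for 1 of the 10, Myd88, against 1325 or 10.6% of all genes. Its log2 fold change was -0.86 ± 0.28 (SE, 95% interval -1.49 to -0.24; adjusted p = 0.461 by edgeR). Cd14 had -1.05 ± 0.48 (-2.12 to 0.02; adjusted p = 0.461 by edgeR), Tlr8 0.86 ± 0.44 (-0.11 to 1.82; adjusted p = 0.466) and Tlr7 0.60 ± 0.29 (-0.04 to 1.25; adjusted p = 0.461). The groups did not overlap for 3 of the 10, with Myd88 lower and Tlr7 and Tlr8 higher with HDL NPs, against 2205 or 17.6% of all genes. For each of the 3 the two-sided exact permutation p was 0.1. Tlr4 (0.61 ± 0.35), Tlr13 (0.45 ± 0.28), Tlr6 (0.39 ± 0.29), Tlr1 (0.20 ± 0.38), Tlr2 (0.09 ± 0.21) and Tlr9 (-0.35 ± 0.46) had intervals across 0. The median of the 10 was 0.29, beside 0.03 over all genes tested. This median was 0.16 without EnzR EVs replicate 1, 0.65 without EnzR EVs replicate 2 and -0.04 without the 3 libraries rich in Rn45s.

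Of the 3 EnzR EV libraries, 2 are among those rich in Rn45s, and the differences from that group were closer to 0 without them for Myd88, Cd14, Tlr7, Tlr8, Tlr4 and Tlr13. With the 3 libraries left out, the log2 fold change was -0.21 for Myd88, -0.51 for Cd14, 0.23 for Tlr7 and 0.21 for Tlr8, and it was -0.06 for Tlr4 and -0.02 for Tlr13. The others were Tlr9 at 0.62, Tlr1 at -0.47, Tlr2 at -0.12 and Tlr6 at 0.083. Without EnzR EVs replicate 1 alone, Myd88 was at -0.50 and Cd14 at -0.36. Without EnzR EVs replicate 2, the 1 EnzR EV library low in Rn45s, the differences were wider, at -1.14 for Myd88, 1.34 for Tlr8 and 1.12 for Tlr4 (adjusted p = 0.0833 by edgeR), and 7 of the 10 had an unadjusted p under 0.05, against 29.3% of all genes, with 0 genes called. With the share of Rn45s as a covariate, a setting likewise picked later, Myd88 was at -0.30 and Tlr8 at 0.11. Limma voom with library weights called 2 of the 10, Myd88 at -0.71 (adjusted p = 0.0468) and Tlr4 at 0.83 (adjusted p = 0.0481), and 639 or 5.09% of all genes. Over all settings tried, the adjusted p of Myd88 in this comparison ran from 0.0468 to 1.0.

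**Figure D3:**
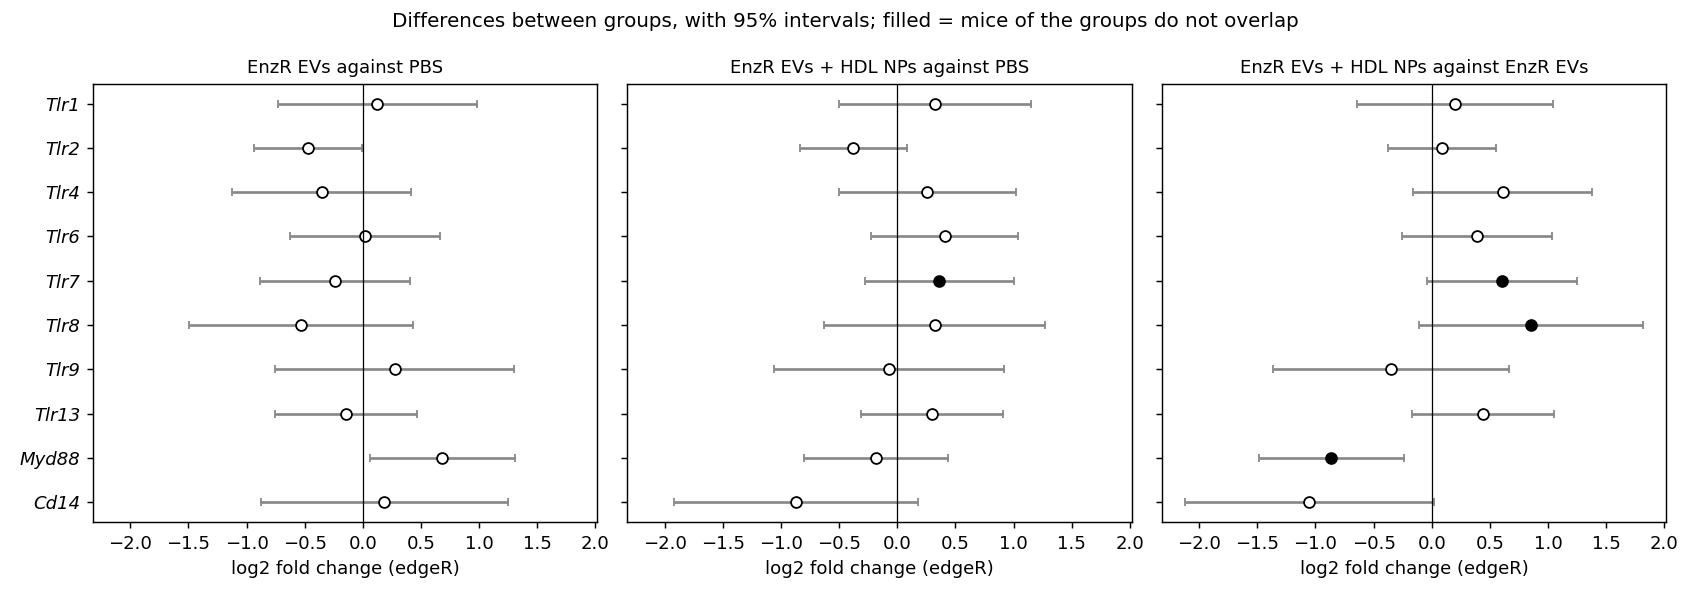
Log2 fold changes by edgeR (points) with 95% intervals (lines) for each gene in the 3 comparisons; filled points mark genes whose 3 mice per group do not overlap. The interval of Myd88 lies above 0 for EnzR EVs against PBS and below 0 for EnzR EVs + HDL NPs against EnzR EVs, before adjustment over all genes.

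For 7 of the 10 genes the 3 libraries rich in Rn45s stood apart from the other 6. In the 3 libraries rich in Rn45s, Tlr1, Tlr4, Tlr6, Tlr7, Tlr8 and Tlr13, or 6 of the 10, were lower than in all 6 others, and Myd88 was higher than in all 6. Tlr8 ran from 24.1 to 51.0 CPM in the 3 and from 86.6 to 110.4 in the 6. Tlr13 ran from 144 to 255 CPM and from 290.4 to 375. Myd88 ran from 163 to 304 CPM in the 3 and from 107 to 132 in the 6. Tlr2, Tlr9 and Cd14 overlapped between the 2 sets. Of all genes tested, 17.9% were lower and 15.5% higher in all 3 such libraries than in the other 6. The libraries were set apart after their values were seen, by a technical measure that differs between the groups. The part of ribosomal RNA or of the neutrophil, monocyte, macrophage, NK and T markers in the differences between groups was not tested.

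**Figure D4:**
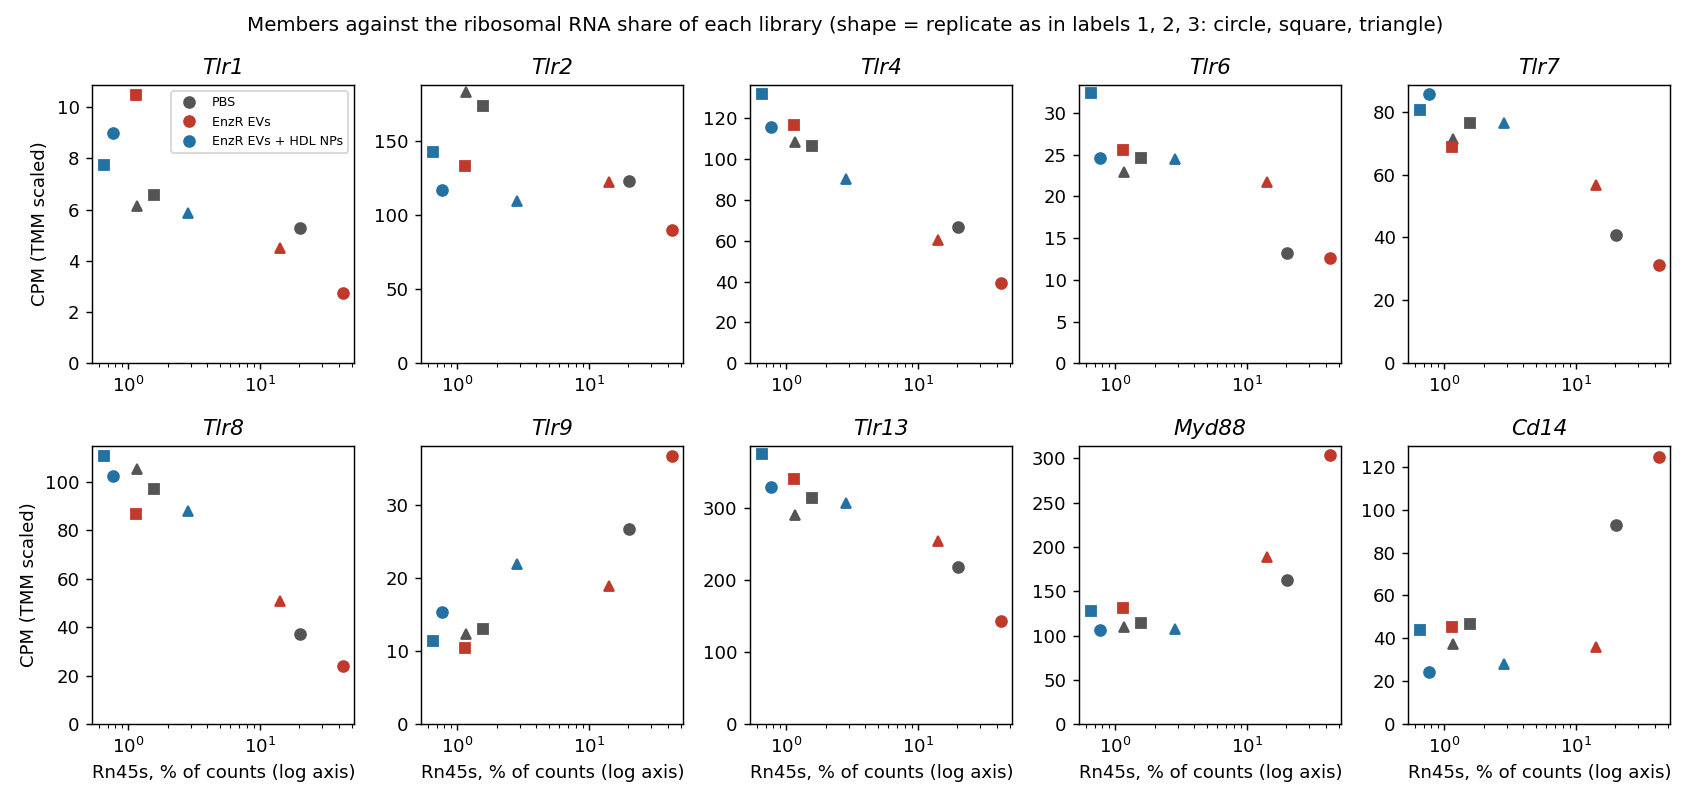
TMM-scaled CPM of each gene (vertical axes, from 0) against the percentage of counts on Rn45s (log axis) for the 9 mice, coloured by group. The 3 points to the right, at 14.2 to 42.7%, lie below the other 6 for 6 of the 10 genes and above them for Myd88.

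The receptors that stood low in the same libraries were compared over the 9 mice, where that shared gap raises r by itself. As a description of log2 CPM, Pearson's r was 0.98 between Tlr7 and Tlr8, 0.96 between Tlr4 and Tlr8 and 0.95 between Tlr7 and Tlr13. Myd88 ran against them, with r = -0.93 for Tlr8 and -0.91 for Tlr7. Within the 6 libraries low in Rn45s the same r were 0.48, 0.60, 0.34, -0.08 and -0.38, closer to 0 for each of these pairs. Against the other 4 receptors low in the same libraries, Myd88 turned from negative over 9 mice to positive over 6, from -0.89 to 0.73 with Tlr13, -0.91 to 0.66 with Tlr4, -0.75 to 0.65 with Tlr6 and -0.81 to 0.60 with Tlr1. Tlr6 and Tlr13 kept 0.93 over 9 and 0.92 over 6. Tlr1 and Tlr6, the lowest pair over 9 among the receptors low in the same libraries, had 0.75 over 9 and 0.275 over 6. Myd88 and Cd14 had 0.79 over 9 and 0.75 over 6. The points share library, depth and cell mixture, and no test was made.

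Among all tested genes, those among the most like over the 9 mice were, for Tlr4, Lilra6 with r = 0.995, and for Tlr13 Abcd2 (0.996) and Cybb (0.995), a subunit of the phagocyte NADPH oxidase. Tlr8 was most like Ezh1, a histone methyltransferase (0.995), and Jph3 (0.994), and Tlr7 most like Zmym6 (0.994) and Zfp62 (0.988). Myd88 was most like 1810037I17Rik and Tmbim6 (both 0.993), Tlr1 most like Apip (0.991) and Cab39l (0.986), and Tlr6 most like Abr (0.987) and the actin gene Actg1 (0.986). Looser were Tlr9 with Ccdc76 (0.981) and Ylpm1 (0.979), Cd14 with Fam174a (0.971) and Naglu (0.965), and Tlr2 with Hpgd (0.931). These r are among the highest of 12553 genes over 9 mice, and they describe these libraries only.

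The rest of the pathway was read from 65 genes listed by role, of which 63 were tested: other Toll-like receptors, coreceptors, endosomal trafficking and processing, adaptors, kinases and ubiquitin ligases, transcription factors and inhibitors. In each of the 3 comparisons 0 of the 63 passed edgeR's adjusted threshold. Unadjusted p was under 0.05 for 1 higher and 2 lower with EnzR EVs against PBS, for 1 higher and 2 lower with EnzR EVs + HDL NPs against PBS, and for 2 higher and 5 lower with EnzR EVs + HDL NPs against EnzR EVs. Over all genes tested, in either direction, these shares were 3.47%, 2.13% and 10.6%. The median log2 fold change of the 63 was -0.09, 0.03 and 0.13 in these comparisons, beside -0.03, -0.01 and 0.03 over all genes.

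With EnzR EVs against PBS the smallest unadjusted p were those of Dusp1, a phosphatase that damps MAP kinases, Cd36, a scavenger receptor that assists TLR2, and Irak4, the first kinase that MyD88 recruits. Dusp1 was at 480.3, 499 and 434 CPM in PBS mice and 296, 395 and 289.5 in EnzR EV mice, which did not overlap (log2 fold change -0.53 ± 0.19; adjusted p = 0.928 by edgeR). Irak4 was at 73.0, 69.8 and 68.1 CPM in PBS mice and 118, 76.1 and 92.7 in EnzR EV mice, again apart (0.43 ± 0.18; adjusted p = 0.928), with the 2 higher EnzR EV values in the libraries rich in Rn45s. Cd36 had -0.83 ± 0.35 with overlapping mice. The genes were picked for their small p, and mice did not overlap for 7.96% of all genes. Without the 3 libraries rich in Rn45s the log2 fold change was -0.24 for Dusp1, 0.15 for Irak4 and -0.905 for Cd36 (adjusted p = 0.35 by edgeR). With EnzR EVs + HDL NPs against PBS they were Tlr11 at 1.44 ± 0.48, Lgmn, a protease that cleaves endosomal receptors, at -0.54 ± 0.18, and Tnfaip3, the inhibitor A20, at -0.52 ± 0.20, all 3 with an adjusted p of 1.0 by edgeR and with mice that did not overlap, as for 13.2% of all genes. Tlr11 stood at 0.51 to 0.58 CPM in PBS mice and 0.95 to 2.03 with HDL NPs, where 3 counts stood for 0.17 to 0.53 CPM in the PBS libraries and 0.17 to 0.21 CPM in those with HDL NPs, so that PBS replicate 1 was at the floor. Without the 3 libraries Tlr11 was at 1.44, Lgmn at -0.55 and Tnfaip3 at -0.40 (adjusted p = 0.797, 0.662 and 0.594 by edgeR).

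With EnzR EVs + HDL NPs against EnzR EVs the smallest unadjusted p were those of Cnpy3, a chaperone that folds Toll-like receptors, Cd36 and Tlr11. Cnpy3 was at 121, 57.1 and 74.4 CPM in EnzR EV mice and 49.0, 52.8 and 44.8 with HDL NPs (-0.77 ± 0.25; adjusted p = 0.461 by edgeR). Its 2 higher EnzR EV values were those of the libraries rich in Rn45s, and the third was close to the PBS mice (64.2, 58.8 and 58.2 CPM). Cd36 was at 7.68, 11.9 and 9.58 CPM in EnzR EV mice and 20.0, 18.8 and 21.8 with HDL NPs (1.00 ± 0.35; adjusted p = 0.461). The mice of the 2 groups were apart for both genes, as they were for 17.6% of all genes. Tlr11 was at 1.10, 0.37 and 0.59 CPM in EnzR EV mice and 2.03, 0.95 and 1.47 with HDL NPs, with overlap (1.46 ± 0.53; adjusted p = 0.461). Its value in EnzR EVs replicate 1 was under the floor of that library, where 3 counts stood for 1.65 CPM. Irak4, next to Myd88 in the pathway, was at 62.7, 75.6 and 75.7 CPM with HDL NPs and so below all 3 EnzR EV mice, by under 1 CPM for EnzR EVs replicate 2 (-0.41 ± 0.18; adjusted p = 0.461). The chaperone Unc93b1, which carries the nucleic acid receptors to endosomes, was at 387, 240.2 and 314 CPM in EnzR EV mice and 209, 242 and 219 with HDL NPs, with overlap (-0.49 ± 0.21; adjusted p = 0.461). Irak4 and Unc93b1 in this comparison were picked after their values were seen. Without the 3 libraries rich in Rn45s the log2 fold change was -0.23 for Cnpy3, -0.097 for Irak4 and -0.11 for Unc93b1, and it was 0.755 for Cd36 (adjusted p = 0.958 by edgeR) and 1.97 for Tlr11 (adjusted p = 0.958), each against 1 EnzR EV mouse.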

How the data were processed

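RNA-seq libraries of 9 mice were used. Per the study's methods and processing notes, the authors depleted ribosomal RNA, sequenced single-end reads, trimmed adapters (cutadapt 1.13), filtered poor reads and reads on rRNA sequences, aligned to mm10 with STAR and counted reads per gene with HTSeq 0.6.1p1 on the UCSC annotation. The deposited values are raw counts per gene, without normalization. From these counts, edgeR 4.0.16 under R 4.3.3 gave TMM factors, the default filter on low counts (12553 of 23337 genes passed), a robust quasi-likelihood fit to all 9 libraries with 1 coefficient per group, and Benjamini-Hochberg adjustment over all tested genes at 0.05. Single-gene values are CPM scaled by the TMM factors, and log2 CPM used a prior count of 2. Intervals are 95% intervals from the fit. DESeq2 1.42.0 and limma 3.58.1 were alternatives, beside other scalings, filters, a replicate block and libraries left out. Scripts were tested on counts simulated once with the depth and spread of these libraries, for EnzR EVs against PBS. There edgeR called 18% of 100 genes changed by a log2 fold change of 1 in size, and 76% of 100 changed by 2. Of its calls 5.05% were false, against 16.8% of those of DESeq2. A gene not called may thus still differ.

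The 10 genes, the pathway and marker lists and the promoter motifs were chosen with earlier results of these data known. Of the other pathway genes, the 3 with the smallest unadjusted p in each comparison were named by rule, and for each of the 10 genes the 2 most correlated genes, of which 1 each for Tlr2 and Tlr4 is not reported here. Replicates are separate mice, and nothing in the labels pairs them across groups except a shared number. PBS replicates 2 and 3, the most similar pair, had a chi-square of 4.48 for each gene, more than sampling noise gives. Symbols were matched to GENCODE M21 for 89.8% of genes, and positions are on GRCm38, the assembly of mm10. Floors allow for counting error alone, as the libraries have no molecular identifiers. The dose of HDL NPs is that of the labels, and the study's methods give another.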

Additional observations from a re-analysis of the deposited data

How the results depend on the processing

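None of the 10 genes passed the adjusted threshold in any of the 3 comparisons, by edgeR, DESeq2, limma voom, other scalings or filters, 6 libraries only, or with libraries left out. The exception, chosen after seeing the data, was limma voom with sample quality weights, with 4 called for EnzR EVs against PBS, 0 for EnzR EVs + HDL NPs against PBS and 2 for EnzR EVs + HDL NPs against EnzR EVs. With the replicate block, 0 were called in each comparison and 1 direction turned, Tlr6 in EnzR EVs against PBS at -0.006. The block moved the genes with an unadjusted p under 0.05 from 1 to 5 of the 10 for EnzR EVs + HDL NPs against EnzR EVs, and from 10.6% to 18.2% of all genes. Libraries with the same number correlated at -0.18 to 0.49 (mean 0.17, 6 of 9 pairs over 0.1), and others at -0.53 to 0.43 (mean -0.076, 6 of 18). The 3 pairs between PBS and EnzR EVs were all over 0.1 (0.13 to 0.49), while those with the third group were not all over it, so whether the numbers pair the mice is unclear from the data. Of 567 log2 fold changes under alternatives, 58 turned in direction; none of these had passed the adjusted threshold, and the cause was not tested.

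For EnzR EVs against PBS, Cd14 turned to -0.037 without the 2 smallest libraries, -0.12 with the Rn45s covariate, -0.073 with library size only, -0.036 by limma voom and -0.15 with quality weights. Tlr6 turned to -0.13 with library size only, -0.094 with quality weights and -0.005 with no filter. Tlr1 turned to -0.29 with quality weights. Tlr13 and Tlr4 turned to 0.18 and 0.13 without the 3 libraries rich in Rn45s, and Tlr13 to 0.033 with the covariate. Tlr9 turned to -0.27 and -0.20 in these 2 settings. Leaving out each mouse in turn gave -0.51 to 0.64 for Cd14, -0.19 to 0.21 for Tlr6, -0.60 to 0.35 for Tlr1, -0.43 to 0.12 for Tlr13 and -0.22 to 0.68 for Tlr9, and, with no turn, 0.32 to 0.96 for Myd88, -1.02 to -0.21 for Tlr8, -0.86 to -0.077 for Tlr4, -0.47 to -0.002 for Tlr7 and -0.63 to -0.32 for Tlr2.

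For EnzR EVs + HDL NPs against PBS, Tlr9 turned to 0.35 both without the 2 smallest libraries and without the 3 rich in Rn45s, 0.435 with the covariate, 0.016 with library size only, 0.05 by limma voom and 0.20 with quality weights. Myd88 turned to 0.024 without the 2 or the 3 libraries, 0.11 with the covariate and 0.018 with quality weights. Tlr8 turned to -0.012 without the 2 or the 3 libraries and -0.021 with the covariate, and Tlr4 to -0.088 with the covariate. Leaving out each mouse in turn gave -0.36 to 0.35 for Tlr9, -0.29 to 0.022 for Myd88 and -0.013 to 0.57 for Tlr8, and, with no turn, 0.13 to 0.53 for Tlr7, -1.18 to -0.40 for Cd14, -0.53 to -0.27 for Tlr2, 0.19 to 0.58 for Tlr6, 0.067 to 0.40 for Tlr4, 0.16 to 0.41 for Tlr13 and 0.19 to 0.475 for Tlr1.

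For EnzR EVs + HDL NPs against EnzR EVs, Tlr1, Tlr2 and Tlr9 turned to -0.04, -0.06 and 0.16 without the 2 smallest libraries, to -0.47, -0.12 and 0.62 without the 3 rich in Rn45s, and to -0.28, -0.23 and 0.63 with the covariate. Tlr4 and Tlr13 turned to -0.057 and -0.018 without the 3 libraries, and Tlr6 to -0.044 with the covariate. Leaving out each mouse in turn gave -0.029 to 0.92 for Tlr1, -0.06 to 0.19 for Tlr2 and -0.75 to 0.15 for Tlr9, and, with no turn, -1.14 to -0.50 for Myd88, -1.39 to -0.36 for Cd14, 0.53 to 1.34 for Tlr8, 0.36 to 0.82 for Tlr7, 0.33 to 1.12 for Tlr4, 0.17 to 0.73 for Tlr13 and 0.19 to 0.57 for Tlr6. The EnzR EV arm holds 1 mouse without the 3 libraries, which is assumed to vary like the other groups. Depth limits Tlr1 most, at 5 to 197 counts, and with at least 10 counts required in every library 9 of the 10 genes were tested.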

Other observations

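Of the 4 other Toll-like receptor genes, Tlr3, Tlr11 and Tlr12 were at or under 4.39 CPM in every mouse, and Tlr5 stood higher. Tlr5, the flagellin receptor, was at 13.9, 29.3 and 25.9 CPM in PBS mice, 8.23, 22.3 and 18.1 in EnzR EV mice and 21.3, 29.2 and 31.3 in EnzR EVs + HDL NPs mice, with a log2 fold change of 0.67 ± 0.35 (SE) between the last 2 groups (adjusted p = 0.467 by edgeR). Tlr3, the receptor for double-stranded RNA, which signals without MyD88, ran from 1.07 to 3.55 CPM over the 9 mice. Tlr12, which binds profilin together with Tlr11, was at 4.39, 0.59 and 2.48 CPM in EnzR EV mice and 0.90, 0.36 and 0.49 with HDL NPs, with overlap (-1.74 ± 0.75; adjusted p = 0.461 by edgeR). Without the 3 libraries rich in Rn45s, Tlr5 was at 0.285 and Tlr12 at 0.004 in this comparison.

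Ly96, which encodes the MD-2 that TLR4 needs for lipopolysaccharide, averaged 7.70 ± 1.03 CPM (SD, n = 3) with PBS, 5.95 ± 1.39 with EnzR EVs and 6.90 ± 1.84 with EnzR EVs + HDL NPs. Ticam1, the adaptor TRIF, averaged 17.0 ± 1.91, 17.3 ± 3.40 and 16.1 ± 1.32 CPM. Traf6, the ubiquitin ligase downstream of MyD88, averaged 59.4 ± 2.25, 55.0 ± 12.9 and 62.8 ± 5.59 CPM. With EnzR EVs against PBS the log2 fold change was -0.35 ± 0.28 (SE) for Ly96 and 0.05 ± 0.20 for Ticam1. For Traf6 it was -0.09 ± 0.19, and none of the 3 genes passed edgeR's adjusted threshold in any comparison. Ly86, which encodes MD-1, the partner of the Toll-like protein RP105, averaged 44.8 ± 2.98 CPM with PBS and 34.1 ± 5.47 with EnzR EVs (log2 fold change -0.38; adjusted p = 0.928 by edgeR), and the log2 fold change was -0.12 without the 3 libraries. Irf7, a transcription factor of the pathway, was at 39.6, 66.7 and 63.3 CPM in PBS mice. With EnzR EVs it was at 30.7, 131 and 75.8 CPM, and with EnzR EVs + HDL NPs at 115, 104 and 88.85. Against PBS its log2 fold change was 0.51 ± 0.40 with EnzR EVs and 0.855 ± 0.40 with EnzR EVs + HDL NPs. In the latter, mice did not overlap, as for 13.2% of all genes. Without the 3 libraries the values were 1.01, with 1 EnzR EV mouse, and 0.66. These genes were picked from the pathway list after their values were seen.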
